A study of Caenorhabditis elegans with 52 samples.

Results

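The srh genes are one family of putative chemoreceptors of the nematode Caenorhabditis elegans, and were taken here as every protein-coding gene of the Ensembl annotation of WBcel235 whose name is srh- followed by a number. The rule gave 220 of the 19973 protein-coding genes, with 180 on chromosome V, 27 on chromosome II, 7 on chromosome IV, 3 on chromosome I, 2 on chromosome X and 1 on chromosome III. Each gene was represented by the nucleosomes whose center lay between 500 bp upstream of its start and its end. A median of 11 to 12 nucleosomes per srh gene was listed in each of the 4 tables, and 216 srh genes had at least 3 in every table.

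Native chromatin immunoprecipitation for histone H3 (H3 Native ChIP-seq) was performed on uncrosslinked germ nuclei isolated from young adults, in which micrococcal nuclease releases single nucleosomes before the pulldown. The wild type was VC2010, the prde-1 mutant was SX2499 carrying prde-1(mj207), and ISW-1 was studied in a strain that the sample labels call YL701. By the labels its isw-1 is tagged with eGFP and AID, and the TIR1 protein that drives auxin-dependent degradation is expressed from the germline promoter mex-5, but the strain list of the study names related strains and not YL701. PRDE-1 is a subunit of the Upstream Sequence Transcription Complex of piRNA genes, and ISW-1 is an ATP-dependent nucleosome remodeler. VC2010 animals were harvested after 49 to 52 h and SX2499 animals after 56 to 59 h, while YL701 animals received 1 mM auxin or the ethanol vehicle for 3 h before harvest, so that the ethanol control carried every allele of the auxin group. Beads were washed at 150 mM NaCl (low salt) or at 500 mM NaCl (high salt), which gave 8 groups of 2 samples. The 2 samples of each group had been merged before nucleosomes were called, so every value below comes from 1 merged library, no difference between libraries has a replicate check and no test of a difference was possible. The genotype or treatment field contradicted the title for the high salt samples of wild type, prde-1 and ethanol and for the low salt auxin samples, and the groups follow the titles.

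Chemoreceptors of the srh family belong to the Str superfamily of seven-transmembrane, G protein-coupled receptors, which sensory neurons use to detect volatile and soluble cues. Individual members are known to be expressed in a few chemosensory neurons of the head, and the family lies mostly in tandem arrays on the arms of chromosome V. RNA was not measured in these files, so the silence of the srh genes in germ nuclei, the identity of the nuclei and the loss of PRDE-1 or ISW-1 could not be checked.

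The sequences before the srh genes were examined first, because an E-box upstream of many chemoreceptor genes is known to be linked with expression in the ADL sensory neurons. The letters CACCTG, or CAGGTG on the other strand, occurred in the 250 bases before the gene start of 84 of 220 srh genes (38.2%). The same letters occurred before 6.81% of all 19973 protein-coding genes and before 55 of the 367 other genes of the Str superfamily (14.99%). The 61 sri genes are part of those 367, and 33 of the 55 genes with the letters were sri genes (54.1% of the sri genes). The palindromic form CACGTG was not more frequent in the family, with 8 of 220 srh genes (3.64%) against 4.94% of all protein-coding genes. The 6 windows below show genes to which the results return, each as 30 bases read 5′ to 3′ on the strand of the gene from WBcel235, with the E-box in capitals.
srh-220: aatttacattttCACCTGctgcgtattttt
srh-234: caaactcaaaatCACCTGtccatggtcaga
srh-128: cggcagtgtgagCACCTGggctccaatttt
srh-149: gagcaaaaagttCACCTGctcttttctatc
srh-275: gcttttgataagCACCTGtcaaaagtataa
srh-266: caaggtttgcaaCAGGTGaaaccccacaaa

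The E-boxes of srh-220, at chrIV:3978094-3978123 on the minus strand, and of srh-234, at chrV:7651898-7651927 on the minus strand, lay 90 and 52 bases before the gene start. Both genes are known to be expressed in ADL, and srh-234 is known to be regulated by feeding state. The windows of srh-128 (chrII:2705339-2705368, minus strand), srh-149 (chrV:15841241-15841270, minus strand), srh-275 (chrV:7352871-7352900, plus strand) and srh-266 (chrV:664709-664738, plus strand) held the E-box 50, 57, 114 and 70 bases before the start. In the family as a whole 91 copies were found, 48 as CACCTG and 43 as CAGGTG, at a median of 70.0 bases before the start. Of these copies 78.0% lay 40 to 120 bases before the start, against 42.3% of the 1363 copies before other genes. The start of 171 srh genes is the first coding base. Only 49 srh genes have an annotated 5′ untranslated region, against 78.0% of other genes. Positions of the E-box and shares of genes with it are therefore often counted from unlike points in srh and other genes. The part of this in the differences was not tested. The E-boxes are matches of letters, and binding was not measured.

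**Figure D1:**
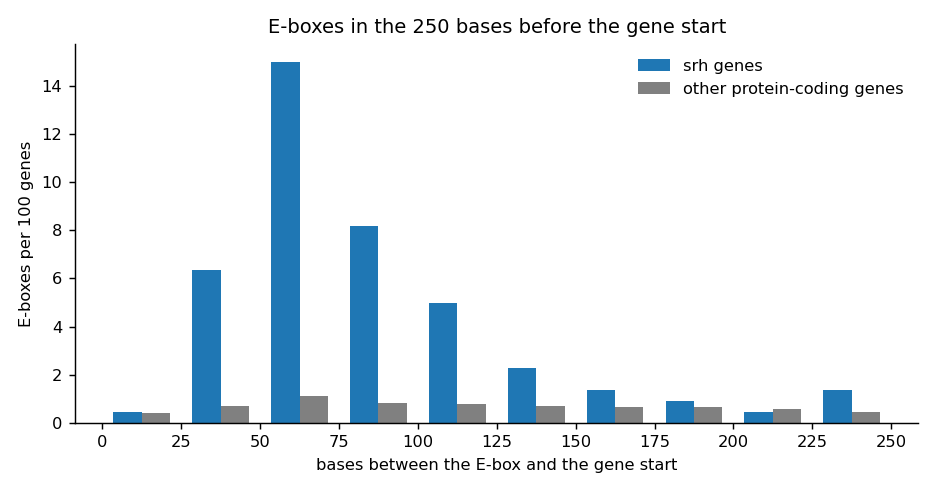
Number of E-boxes (the 2 strands of the form counted in 84 srh genes) per 100 genes, in bins of 25 bases between the motif and the gene start, for the 220 srh genes (blue) and the other protein-coding genes (grey). The srh bars are tallest at 50 to 74 bases before the start, where 33 of the srh E-boxes lie and the other genes have 1.13 per 100 genes. The start is the first coding base for 171 srh genes, while most other genes have an annotated 5′ untranslated region.

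Nucleosomes lay about as far from the E-boxes of srh genes as from those of other genes. The median distance from an srh E-box to the nearest occupied dyad, which is the center of a nucleosome, was 57.0 bp in wild type at low salt and between 52 and 71 bp over the 8 libraries, and other genes with the motif gave 53.0 to 60.0 bp. The share of srh E-boxes within 73 bp of a dyad, that is within the footprint of a nucleosome core, ranged from 52.7% in ethanol at high salt to 69.2% in ethanol at low salt, around the 58.5% to 65.4% of other genes. For srh-220 the nearest dyad was 50 bp from the E-box in wild type at low salt, 17 bp in wild type at high salt, 5 bp in prde-1 at low salt, 197 bp in prde-1 at high salt, 116 and 63 bp in ethanol at low and high salt, and 35 and 4 bp in auxin. The nearest dyad of srh-220 thus sat over the E-box in some libraries and beside it in others, without an order by strain or salt. Any occupancy above 0 counted as a dyad. The occupancy of this dyad was only 3.88 in ethanol at high salt and 430 in prde-1 at high salt, and 62.7 to 175 in the remaining libraries. The 82 tested srh genes with the motif had a relative level (defined below) of -0.35 in wild type at low salt, and the 134 without it had -0.39. The order differed between libraries, with -0.45 against -0.28 after auxin at low salt and -0.17 against -0.34 in prde-1 at high salt.

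The 4 srh genes that could not be measured were both copies of srh-57 and both copies of srh-228. The annotation gives srh-57 on chromosome II at positions 3588283 to 3589721 of the plus strand and 3592051 to 3593489 of the minus strand, and srh-228 on chromosome IV at 16339665 to 16341374 of the plus strand and 16342490 to 16344199 of the minus strand. In each pair the windows of 1939 and 2210 bp were identical when the minus strand copy was read in reverse complement, and all 4 tables together listed 0 nucleosomes there. Reads that align equally well to several places are usually removed by a filter on mapping quality such as the one the study applied, so the 0 is a statement about what was mapped and not about H3. Over all 220 genes, 14 had less than 90% of their 100-base stretches unique in the genome, these 4 included.

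H3 occupancy was lower over srh genes than over other protein-coding genes in each of the 8 libraries. The level of a gene was the mean of the summit occupancies of its nucleosomes, in the input-subtracted units of DANPOS3, which scales each library to a common total, so that levels are relative. The median srh level was 109 in wild type at low salt, where the 19353 other genes had 141.0, and 127 at high salt, where they had 151. It was 112 against 139 in prde-1 at low salt, 126 against 153 in prde-1 at high salt, 116 against 148 in ethanol at low salt and 89.9 against 129 in ethanol at high salt. After auxin it was 114 against 141 at low salt and 124 against 147 at high salt. The shortfall was largest in ethanol at high salt, where the srh genes also had their lowest median.

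The relative level, which is log2(level + 1) of a gene minus the median of the other protein-coding genes, had a median over srh genes of -0.37 and -0.25 in wild type at low and high salt, -0.31 and -0.28 in prde-1, -0.34 and -0.52 in ethanol, and -0.30 and -0.24 after auxin. The number of srh genes below the median of the other genes was 163 of 216 in wild type at low salt (75.5%, against 50.3% of all tested genes) and ranged from 146 after auxin at high salt (67.6%) to 189 in ethanol at high salt (87.5%, against 50.4%). The highest 25% of genes held few of them, from 6 of 216 (2.78%) in ethanol at low and high salt to 22 (10.2%) after auxin at high salt, against 24.8% of all tested genes. Across libraries 47 srh genes (21.8%) were below the median in all 8, against 11.6% of all tested genes, and 1 (0.463%) was above it in all 8, against 15.2%. In the lowest 25% were 88 (40.7%) in prde-1 at either salt and up to 113 (52.3%) in ethanol at high salt, against 25.2% and 25.3% of all tested genes. The spread of the family over its genes was narrower than that of other genes, with a standard deviation (SD) of 0.63 against 0.76 in wild type at low salt and 0.64 against 0.90 in ethanol at high salt.

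**Figure D2:**
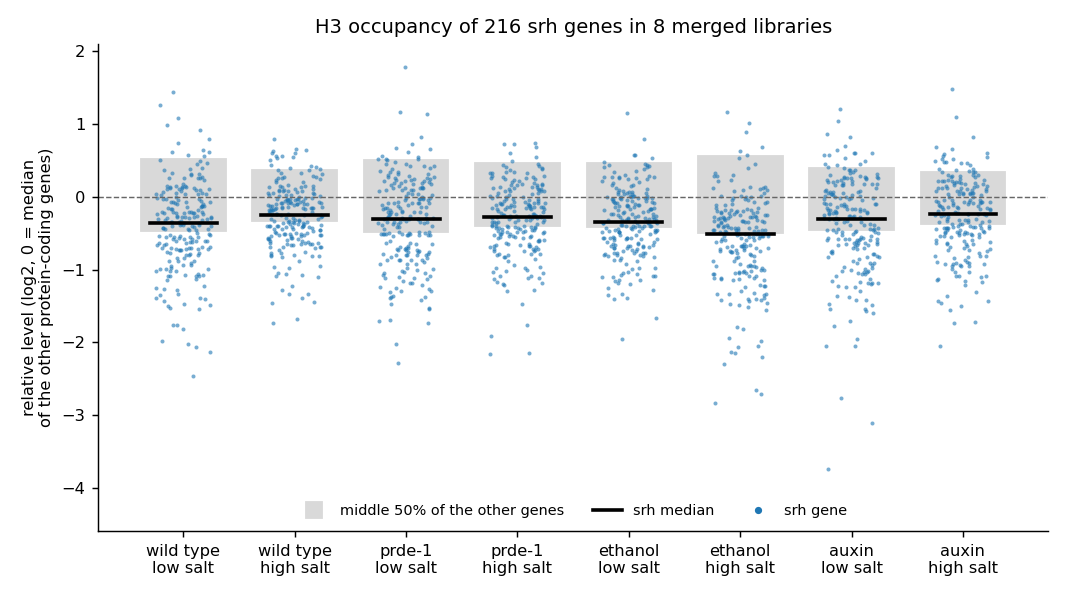
Relative H3 level (log2, y axis) of each of the 216 measured srh genes (blue points) in the 8 merged libraries, with their median (black line), over the middle 50% of the other protein-coding genes (grey box, dashed line at their median). The srh medians lie between -0.52 in ethanol at high salt and -0.24 after auxin at high salt, and most points lie below the dashed line.

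Much of this shortfall was shared with the genomic neighbourhood. The 2941 tested genes outside the chemoreceptor families that lie within 100 kb of an srh gene had a relative level of -0.16 in wild type at low salt and -0.25 in ethanol at high salt. Taken against these neighbours, the median over the 8 libraries of the srh relative level was -0.17, in place of -0.30 against all other genes, and it was -0.16 for the srh genes of chromosome V against the other genes of that chromosome. With the occupancy read at the point of largest difference between paired libraries in place of the summit, it was -0.11 against all genes, and the value after auxin at high salt was then 0.09. The GC content of the srh windows, at a median of 35.1% against 35.8%, was close to that of other genes.

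The rest of the Str superfamily and another arrayed family stood at levels similar to those of srh genes in wild type at low salt and ethanol at high salt. The 347 tested genes of the rest of the Str superfamily had relative levels of -0.44 in wild type at low salt and -0.46 in ethanol at high salt, and the C-type lectin genes, which encode secreted or membrane proteins with roles in immunity, had -0.39 and -0.52. The 17 chemosensory signalling genes, such as the channel subunit gene tax-4 and the regulator gene hlh-3, had -0.19 and -0.12. The 68 ribosomal protein genes, which nearly all cells transcribe strongly, were far higher at 1.35 and 2.30, and the 25 germline genes, such as gld-1 and the piRNA Argonaute gene prg-1, had 0.67 and 1.11. Not all receptor families shared the srh level. In ethanol at high salt the Sra and Srg superfamilies had -0.25 and -0.33, against -0.52 for srh genes. After auxin the Sra superfamily had 0.02 at either salt, against -0.30 and -0.24 for srh genes (low, then high salt).

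The only srh gene above the median in every library was srh-2 (WBGene00005228, chromosome V, 728301 to 734311, plus strand), which was singled out after its values were seen and is also long for the family at 6011 bp against a median of 1558 bp. Its level was 169 and 182 in wild type at low and high salt, 162 and 209 in prde-1, 202 and 291 in ethanol, and 214 and 413 after auxin. The high value after auxin included the strongest srh nucleosome of that library, with an occupancy of 1890 at 44 bp after the gene start.

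The highest levels over the 4 control libraries were found for srh-233, srh-128 and srh-274. For srh-233 (WBGene00005440, chromosome V, 20049365 to 20052609, plus strand) the level was 341 and 189.8 in wild type at low and high salt, 479.7 and 254 in prde-1, 329 and 129 in ethanol, and 257 and 138 after auxin. In each of the 4 pairs the low salt library was the higher one, and at high salt after auxin the gene fell just below the median of other genes, at a relative level of -0.08. The level of srh-128 (WBGene00005345, chromosome II, 2703371 to 2705300, minus strand) was 301 and 230.4 in wild type, 314 and 256 in prde-1, 258 and 114 in ethanol, and 249.6 and 155 after auxin. Its strongest nucleosome, which was also the strongest srh nucleosome of the low salt libraries of wild type, prde-1 and ethanol, had an occupancy of 1151 in wild type at low salt with its dyad 383 bp before the start, so the E-box of srh-128 lay well to the gene side of that dyad. Only 78.6% of the 100-base stretches of srh-274 (WBGene00005479, chromosome II, 983142 to 984564, plus strand) are unique in the genome. Its level was 385 and 224 in wild type, 309 and 255 in prde-1, 198 and 113 in ethanol, and 228 and 132 after auxin, and reads of similar loci cannot be told apart from its own.

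The lowest levels over the control libraries were found for srh-149, srh-289 and srh-87, all on chromosome V. The level of srh-149 (WBGene00005365, 15839964 to 15841195, minus strand) was 34.0 and 46.4 in wild type at low and high salt, 53.0 and 169 in prde-1, 88.7 and 84.7 in ethanol, and 59.4 and 80.1 after auxin. It was low in 7 libraries and near the median of other genes in prde-1 at high salt. In wild type at low salt 5 of its 9 listed nucleosomes were at 0. The level of srh-289 (WBGene00005493, 17792679 to 17794086, minus strand) was 125 and 77.3 in wild type, 58.4 and 101 in prde-1, 57.6 and 30.2 in ethanol, and 105 and 152 after auxin, and that of srh-87 (WBGene00005308, 2944377 to 2945702, minus strand) was 68.8 and 98.9 in wild type, 88.9 and 62.0 in prde-1, 61.4 and 47.6 in ethanol, and 120.1 and 146 after auxin. Both were lowest in ethanol at high salt and highest after auxin at high salt.

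Which srh genes were high or low was only partly the same from library to library. Spearman's rho over the 216 genes was 0.49 between the low salt libraries of wild type and prde-1, 0.24 between low and high salt in wild type, 0.29 between ethanol and auxin at high salt and -0.10 between prde-1 and auxin at high salt. The same pairs of libraries gave 0.73, 0.59, 0.54 and 0.32 over the other genes. These are descriptions across genes, which are not independent replicates, and the libraries of one strain comparison at one salt share a table of nucleosome positions. After auxin the srh levels ran against GC content (rho of -0.50 at low salt and -0.39 at high salt), as they did over other genes (-0.46 and -0.36), while in wild type rho with GC content was -0.13 and 0.09. The ethanol control of the auxin group gave -0.11 and -0.31 (low, then high salt). The prde-1 libraries gave -0.22 and 0.03. The tables of wild type and prde-1 are named as GC-corrected and those of ethanol and auxin are not.

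The family is clustered, and clusters did not share one level. Joining srh genes no more than 20 kb apart gave 108 runs, of which 9 held 5 or more genes and 60 genes in all, and another 60 genes stood alone. The largest run has 13 genes on chromosome V (17790491 to 17844206, from srh-290 to srh-286) with a median relative level of -0.02 in wild type at low salt and -0.57 in ethanol at high salt. The run of 5 genes at 15839964 to 15867333 of the same chromosome, which holds srh-149 and srh-148, had -1.39 in wild type at low salt and -0.35 in ethanol at high salt. In wild type at low salt the genes of runs of 5 or more had a median of -0.37, those of runs of 2 to 4 had -0.40 and those alone had -0.34. In the libraries of the ISW-1 strain the shortfall was deepest in the runs of 5 or more. The medians from these runs through runs of 2 to 4 to genes alone were -0.42, -0.36 and -0.24 in ethanol at low salt, -0.60, -0.47 and -0.47 in ethanol at high salt, -0.48, -0.22 and -0.16 after auxin at low salt and -0.37, -0.23 and -0.08 after auxin at high salt. The median GC content in the same order was 36.1%, 34.5% and 34.6%, and its part in these levels was not tested.

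Single nucleosomes showed the same picture. In wild type at low salt 25.2% of the 2571 nucleosomes in srh windows had an occupancy of 0, against 18.9% of those in other genes. Among the strongest 5% of all listed nucleosomes of the library, in genes or not, were 1.40% of those in srh windows, against 4.95% of those in other genes. In ethanol at high salt 32.6% were at 0, against 23.7%, and 0.763% were among the strongest 5%. After auxin at high salt the share at 0 was 23.2%, next to 23.0% in other genes. Upstream, exonic and intronic nucleosomes of srh genes were all less occupied than those of other genes, with log2 ratios of the means of -0.46, -0.61 and -0.40 in wild type at low salt and of -0.98, -0.60 and -0.79 in ethanol at high salt.

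In wild type at low salt no position around the start was shared by most srh genes, as in other genes. The share of the 220 genes with a dyad in each 100-bp bin from 500 bp before to 500 bp after the start stayed between 36.4% and 45.0% in that library, beside 41.5% to 46.0% of all other protein-coding genes and 31.6% to 39.5% of the rest of the Str superfamily. Over the 8 libraries the srh share lay between 32.7% and 50.5%, the highest being the bin from 200 to 299 bp after the start in prde-1 at high salt. Ribosomal protein genes, in contrast to all of these, went from 30.9% in the bin just before the start to 82.4% in the bin just after it. The start of 171 srh genes is the first coding base, since only 49 have an annotated 5′ untranslated region, against 78.0% of other genes, so bins may be offset from the site where transcription begins.

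**Figure D3:**
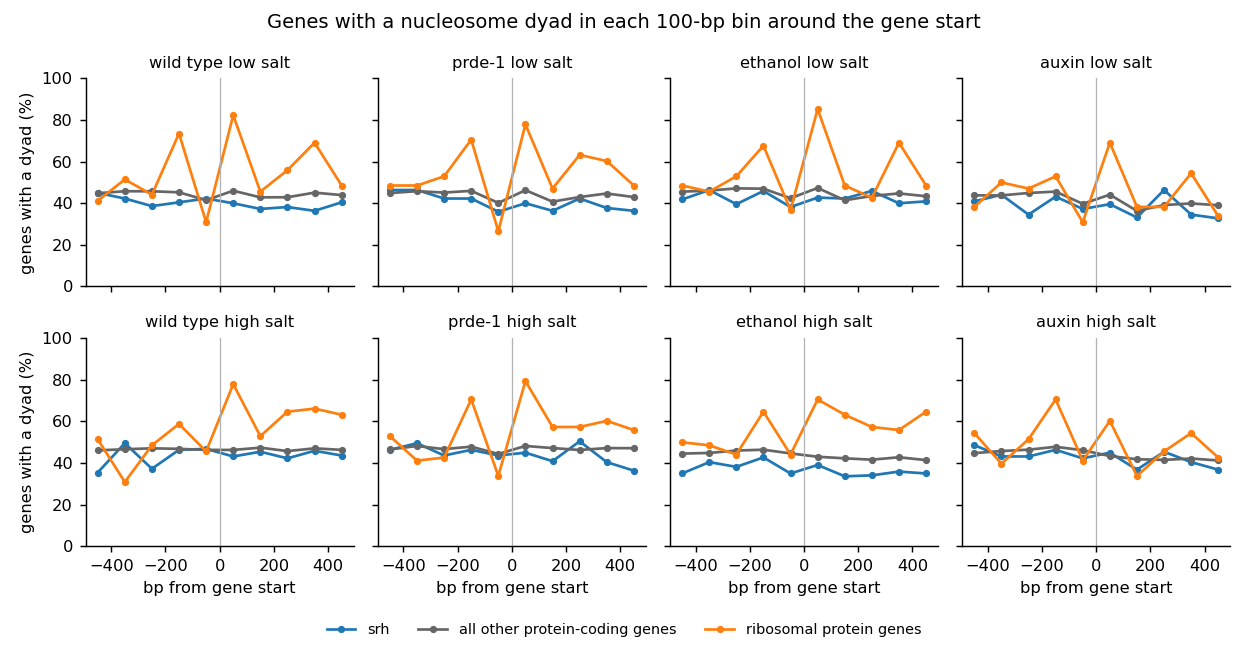
Percent of genes with an occupied dyad (y axis) in 100-bp bins around the gene start (x axis, bp) in each of the 8 libraries, for 220 srh genes (blue), 68 ribosomal protein genes (orange) and the other protein-coding genes (grey). The srh line is flat at 36.4% to 45.0% in wild type at low salt, where the ribosomal protein line jumps from 30.9% to 82.4% across the start.

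Distances between neighbouring dyads were longer over srh genes in 7 of the 8 libraries. The median inter-dyad distance was 208 bp in wild type at low salt, where other genes had 193.5 bp, and 189.8 bp against 185 bp at high salt. It was 205 against 196.5 bp and 192.5 against 186 bp in prde-1, 203 against 196 bp and 215.8 against 194.5 bp in ethanol, and 202.2 against 203.5 bp and 194.5 against 193.5 bp after auxin. The difference was thus largest in ethanol at high salt, at 21.2 bp, and -1.25 bp and 1.00 bp in the auxin libraries. Dyads at an occupancy of 0 were left out, and each one left out can lengthen a distance. At high salt the share at 0 was 32.6% in ethanol, where the distance was longer, and 23.2% in auxin. At low salt the share was 22.2% in ethanol and 28.8% in auxin, with similar distances of 203 and 202.2 bp. Share and distance thus did not move together in all libraries. The part of this share in the distance was not tested. The median difference over the 8 libraries was 6.75 bp, and 19.9 bp when dyads with an occupancy under 50 were left out, while in prde-1 at high salt the 500 bp upstream alone gave -0.25 bp. It was 3.38 bp against the neighbours within 100 kb and 3.25 bp within chromosome V, and against the neighbours it was -6.75 and -3.50 bp in the auxin libraries. Related families had distances like those of srh genes in wild type at low salt, with 207 bp in the rest of the Str superfamily, 209.5 bp in the Sra superfamily and 210.0 bp in the C-type lectin genes.

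The fuzziness score, which measures how far the signal spreads around a dyad, was lower over srh genes than over all other genes in all 8 libraries. Its median over srh genes was 36.4 in wild type at low salt, 2.48 below that of other genes, and 37.6 in ethanol at high salt, 2.30 below. In the auxin libraries the differences were -0.22 and -0.27 (low, then high salt). Against neighbours within 100 kb the median difference over the 8 libraries was -0.59, and within chromosome V it was -0.71, in place of -1.59 against all genes. In the auxin libraries the srh score was above that of the neighbours, by 0.45 at low salt and 0.81 under the high salt wash. Other families had similar scores in wild type at low salt, with 36.3 in the rest of the Str superfamily, 37.0 in the Sra superfamily and 35.6 in the C-type lectin genes. The ribosomal protein genes, with high occupancy, had a median score of 46.0 in wild type at low salt.

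Salt retention, the log2 ratio of the high salt to the low salt level relative to the median of other genes, asked whether H3 over srh genes withstood the high salt wash differently. The low and high salt libraries stand in separate tables that were scaled separately, so only differences relative to other genes can be read. Retention of the srh genes had a median of 0.17 in wild type (middle 50% of genes from -0.31 to 0.54), -0.01 in prde-1, -0.26 in ethanol (-0.71 to 0.17) and 0.12 after auxin. More than 1.5-fold above the median were 50 of 216 srh genes in wild type (23.1%, against 17.3% of all tested genes), 47 in prde-1 (21.8%, against 16.3%), 16 in ethanol (7.41%, against 17.0%) and 47 after auxin (21.8%, against 16.7%). More than 1.5-fold below it were 32 in wild type (14.8%, against 13.7%), 36 in prde-1 (16.7%, against 12.2%), 70 in ethanol (32.4%, against 16.8%) and 30 after auxin (13.9%, against 13.8%). Some other families also had a positive median in wild type and a negative one in ethanol, with 0.27 and -0.29 in the sri genes, 0.30 and -0.17 in the C-type lectin genes and 0.16 and -0.13 in the Srg superfamily. The rest of the Str superfamily as a whole had 0.27 and 0.005, and the srw genes had -0.03 and -0.11. For srh genes the wild type and the ethanol control, neither of which lacks PRDE-1 or ISW-1, thus differed in direction. The difference between them was not tested. Strain, harvest time, vehicle and the GC correction named for the wild type tables alone differ between these controls and cannot be told apart. At high salt srh levels ran against GC content in ethanol (rho of -0.31) and not in wild type (0.09), and the part of this in retention was not tested. The wild type value was 0.095 within chromosome V and 0.098 over the 500 bp upstream alone. With the median in place of the mean over the nucleosomes of a gene, retention was -0.41 in ethanol and 0.27 after auxin.

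Among single genes retention was above 1.5-fold in both wild type and ethanol for srh-51, srh-282, srh-219 and srh-148 (1.85%, against 4.29% of all tested genes) and below it in both for 15 genes (6.94%, against 3.23%). The level of srh-282 (WBGene00005487, chromosome IV, 272280 to 273399, minus strand) was 31.3 and 136 in wild type at low and high salt, 109 and 111 in prde-1, 70.1 and 127 in ethanol, and 111 and 138 after auxin. Its retention of 2.01 in wild type rested on a low value at low salt, where 5 of its 9 nucleosomes were at 0. For srh-148 (WBGene00005364, chromosome V, 15856754 to 15858392, minus strand) the high salt level was the higher one in all 4 pairs, with 47.6 and 96.1 in wild type, 63.6 and 123 in prde-1, 68.4 and 157 in ethanol, and 61.1 and 139 after auxin. Another of these genes, srh-51 (WBGene00005274, chromosome I, 6300493 to 6302298, plus strand), had 70.4 and 148 in wild type, 138 and 207 in prde-1, 74.1 and 208 in ethanol, and 151 and 174 after auxin.

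The lowest mean retention over wild type and ethanol, with a negative value in both, was found for srh-275, srh-251 and srh-5, all on chromosome V. The level of srh-275 (WBGene00005480, 7353003 to 7354254, plus strand) was 137 and 54.8 in wild type at low and high salt, 86.3 and 54.3 in prde-1, 92.0 and 17.2 in ethanol, and 129.8 and 170.1 after auxin. High salt was the lower library in wild type, prde-1 and ethanol, and the higher one after auxin. The level of srh-251 (WBGene00005457, 15378367 to 15379917, minus strand) was 103 and 59.5 in wild type, 120.4 and 159 in prde-1, 179 and 36.4 in ethanol, and 102 and 198 after auxin, and that of srh-5 (WBGene00005231, 1685628 to 1686864, plus strand) was 193 and 100.3 in wild type, 67.3 and 151 in prde-1, 169 and 48.4 in ethanol, and 99.7 and 43.7 after auxin. A group of 17 srh genes (7.87%, against 3.35% of all tested genes) was above 1.5-fold in wild type and below it in ethanol, as for srh-132 with 57.4 and 235 in wild type and 105 and 19.7 in ethanol, a gene chosen after its values were seen.

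The comparison of prde-1 with wild type asked whether loss of this piRNA transcription factor changed H3, here at genes other than piRNA genes. Over the srh genes the median relative change was 0.09 on the log2 scale at low salt (middle 50% from -0.32 to 0.42) and -0.06 at high salt (-0.43 to 0.24), both within the middle 50% of other genes. At low salt 34 of 216 genes were more than 1.5-fold higher (15.7%, against 10.2% of all tested genes) and 28 lower (12.96%, against 14.6%). At high salt 21 were higher (9.72%, against 9.83%) and 37 lower (17.1%, against 14.1%). At both salts 3 genes were higher (1.39%, against 1.45%), namely srh-40, srh-52 and srh-149, and 7 were lower (3.24%, against 4.49%). Another 5 genes, srh-142 among them, were higher at low salt and lower at high salt (2.31%, against 1.90%). The low salt median was 0.18 when read at the point of largest difference and 0.23 over the 500 bp upstream alone.

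Among genes with the same sign at both salts, the largest increases in prde-1 at high salt were those of srh-149, srh-251 and srh-104. The high salt levels of srh-149, listed above, were 46.4 (wild type) and 169 (prde-1), a 3.41-fold relative rise, and the low salt rise was 1.55-fold. For srh-104 (WBGene00005323, chromosome V, 16242818 to 16244178, minus strand) the level went from 159 in wild type to 191 in prde-1 under the low salt wash and from 57.2 to 142.4 under the high salt wash, and was 143 and 119.6 in ethanol at low and high salt, and 126 and 83.1 after auxin. Under the same condition the largest decreases were those of srh-265, srh-61 and srh-266. The level of srh-265 (WBGene00005471, chromosome V, 15416251 to 15417616, plus strand) went from 140.4 in wild type to 52.3 in prde-1 under the low salt wash and from 114 to 40.1 under the high salt wash, and was 86.1 and 101 in ethanol at low and high salt, and 131 and 204 after auxin. Both prde-1 libraries were the lowest of the 8 for srh-265, and 7 of its 11 nucleosomes were at 0 in prde-1 at low salt. The level of srh-61 (WBGene00005283, chromosome II, 12514985 to 12516413, minus strand) went from 245 in wild type to 112 in prde-1 under the low salt wash and from 156 to 67.7 under the high salt wash, and was 175 and 98.7 in ethanol at low and high salt, and 168 and 155 after auxin.

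Depletion of ISW-1, the catalytic subunit of a remodeler that spaces nucleosomes, was compared with the ethanol control of the same strain, to ask how H3 occupancy depends on it. After auxin at high salt the srh genes were higher relative to other genes, with a median change of 0.34 on the log2 scale, or 1.26-fold (middle 50% of srh genes from -0.07 to 0.80, of other genes from -0.45 to 0.43). More than 1.5-fold higher were 75 of 216 (34.7%, against 18.3% of all tested genes) and lower were 15 (6.94%, against 19.9%). At low salt the median was 0.09, with 47 genes higher (21.8%, against 14.1%) and 41 lower (19.0%, against 15.9%). The ethanol library at high salt, in which srh genes were lowest, enters both this comparison and the ethanol retention, and the srh medians were 89.9 in it and 124 after auxin. Relative levels after auxin at high salt (-0.24) were close to those of wild type at high salt (-0.25). The high salt median of 0.34 was 0.23 for chromosome V alone, 0.53 with the median over the nucleosomes of a gene and 0.56 at the point of largest difference, where the low salt median was 0.24.

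**Figure D4:**
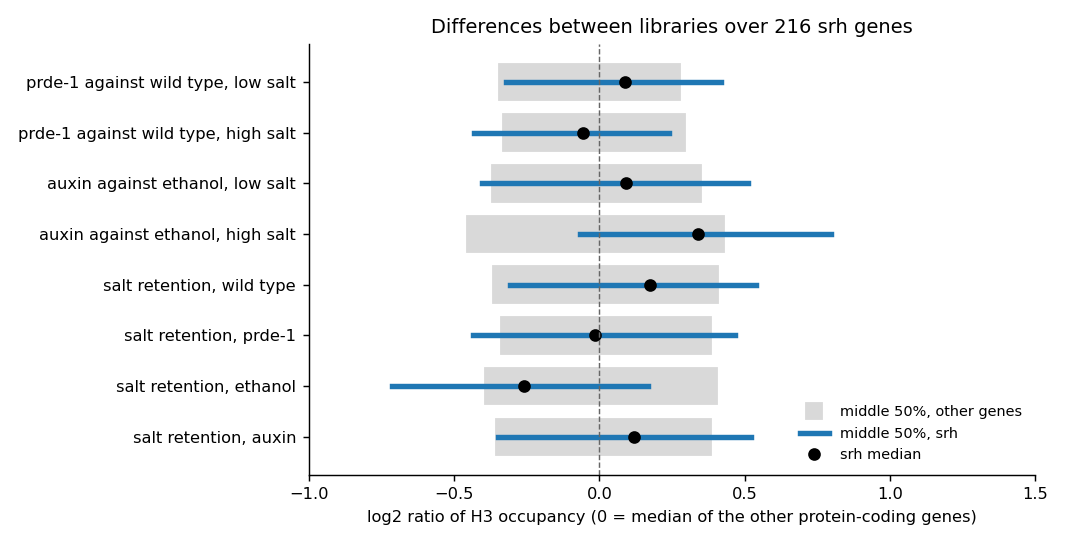
Median (black point) and middle 50% (blue line) over 216 srh genes of the log2 ratio of H3 levels in each of 8 comparisons, relative to the median of the other protein-coding genes, whose middle 50% is shown in grey. The srh medians lie at 0.34 for auxin against ethanol at high salt, at -0.26 for retention in ethanol, and between -0.06 and 0.17 for the other comparisons.

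Related families had medians of the same sign at high salt, and highly occupied groups moved the other way. The rest of the Str superfamily had a median of 0.23 with 29.1% of genes more than 1.5-fold higher, the Sra superfamily had 0.28, the Srg superfamily 0.24, the sri genes 0.32 and the C-type lectin genes 0.21, so the positive median was not particular to srh genes. The neighbours of srh genes had 0.09. The ribosomal protein genes fell relative to the median by 1.51 on the log2 scale after auxin at high salt and by 1.03 at low salt, and the germline genes fell by 1.20 and 0.62. At low salt the rest of the Str superfamily had 0.22, the C-type lectin genes -0.04 and the neighbours -0.01. Since each library is scaled to one total, a fall of highly occupied genes and a rise of the rest cannot be told apart from these values.

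At both salts 19 srh genes were more than 1.5-fold higher after auxin (8.80%, against 4.30% of all tested genes), and srh-182 and srh-185 were lower (0.926%, against 6.09%). A further 22 genes (10.2%, against 2.75%) were lower at low salt and higher at high salt, among them srh-72 and srh-251, and srh-95 alone went the opposite way (0.463%, against 1.37%). The 7 genes of the run from srh-127 to srh-88 on chromosome V (2893276 to 2964886) were all above 0 at high salt, with a median of 1.09. Of all 216 srh genes 157 (72.7%) were above 0, which is the median of the other genes. This run was singled out after its values were seen, and had the relative level of -1.24 in ethanol at high salt. Runs did not all rise, with medians of -0.12 from srh-154 to srh-118 and -0.24 from srh-149 to srh-293. The remaining runs of 5 or more genes had positive medians.

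Among genes with the same sign at both salts, the largest increases after auxin at high salt were those of srh-275, srh-266 and srh-79, on chromosome V. The level of srh-275 at high salt was 17.2 in ethanol and 170.1 after auxin, an 8.70-fold relative rise, and 7 of its 10 nucleosomes were at 0 in ethanol but 1 after auxin. The level of srh-266 (WBGene00005472, 664797 to 665923, plus strand) was 113 and 222 in wild type at low and high salt, 81.4 and 97.2 in prde-1, 146 and 25.5 in ethanol, and 159 and 185 after auxin, and 5 nucleosomes were listed for it in the high salt table of ethanol and auxin. For srh-79 (WBGene00005300, 7497740 to 7499128, plus strand) it was 144 and 96.0 in wild type, 56.2 and 111 in prde-1, 83.4 and 18.9 in ethanol, and 162 and 123 after auxin. In all 3 genes the ethanol library at high salt was the lowest of the 8. The auxin value at high salt was the highest of the 8 for srh-275 and lay within the range of the remaining libraries for srh-266 and srh-79.

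Under the same condition the largest decreases were those of srh-73, srh-172 and srh-185. The level of srh-73 (WBGene00005294, chromosome II, 12512166 to 12513316, plus strand) was 72.9 and 144 in wild type at low and high salt, 33.6 and 74.8 in prde-1, 69.1 and 85.1 in ethanol, and 62.2 and 34.6 after auxin. For srh-172 (WBGene00005388, chromosome V, 19959044 to 19960916, plus strand) it was 114.7 and 144 in wild type, 102 and 128 in prde-1, 151 and 121 in ethanol, and 125 and 52.9 after auxin. The auxin library at high salt was the lowest for srh-172, and nearly so for srh-73. The level of srh-185 (WBGene00005400, chromosome V, 3066228 to 3067549, plus strand) was 70.8 and 231 in wild type, 189.9 and 233.8 in prde-1, 149 and 111 in ethanol, and 86.0 and 58.8 after auxin.

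**Figure D5:**
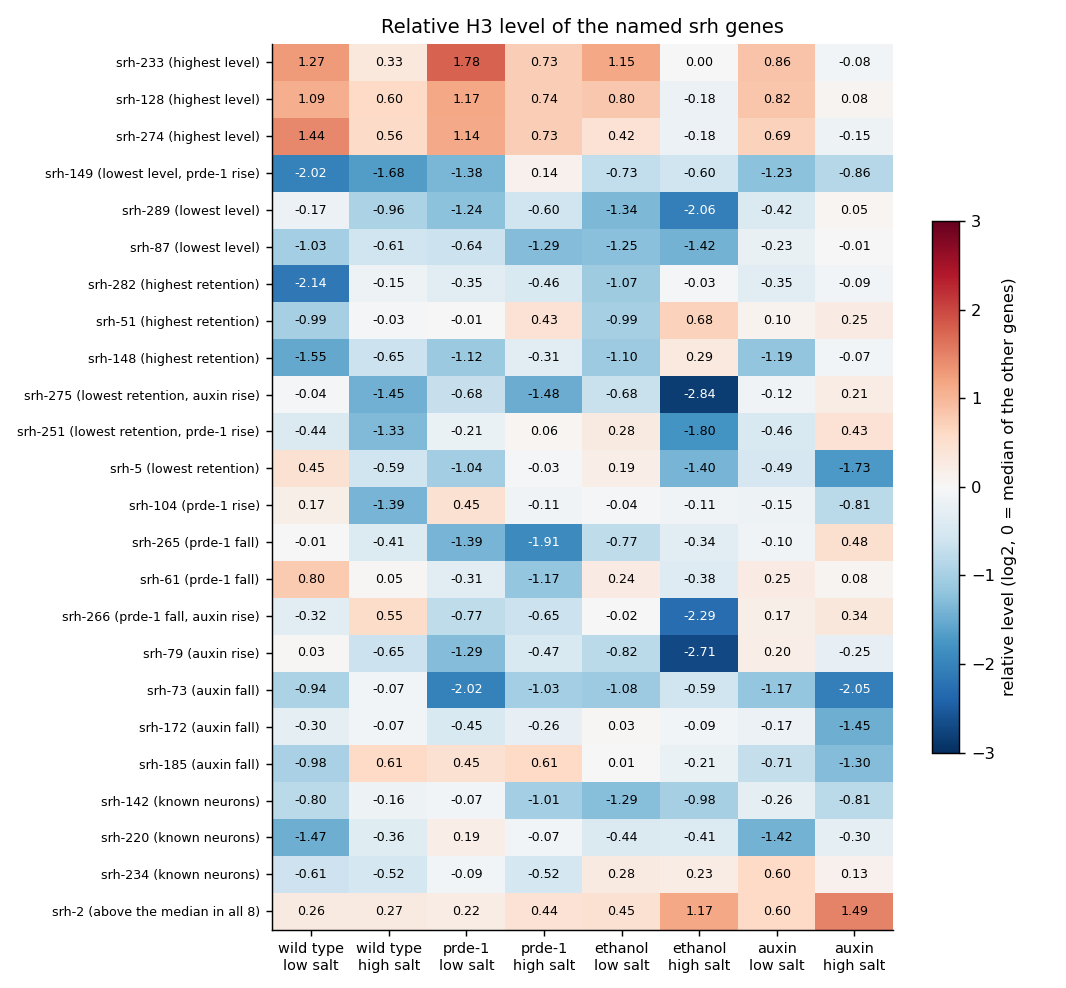
Relative H3 level (log2, color and printed value, 0 is the median of the other protein-coding genes) of 24 srh genes (rows, with the reason each is shown) in the 8 merged libraries (columns). The darkest blue cells are srh-275, srh-79 and srh-266 in ethanol at high salt, at -2.84, -2.71 and -2.29, and srh-2 at the bottom is above 0 in all 8 columns.

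Among the members with known neurons of expression, the level of srh-142 (WBGene00005359, chromosome V, 16459336 to 16460966, minus strand), a marker of the serotonergic ADF neurons, was 80.5 and 136 in wild type at low and high salt, 132 and 75.7 in prde-1, 59.9 and 64.7 in ethanol, and 117 and 83.3 after auxin, below the median of other genes in each library. The level of srh-220 (WBGene00005430, chromosome IV, 3976429 to 3978015, minus strand) was 50.2 and 118 in wild type, 159 and 146 in prde-1, 109 and 96.6 in ethanol, and 51.8 and 119 after auxin. For srh-234 (WBGene00005441, chromosome V, 7650242 to 7651857, minus strand) it was 92.0 and 105 in wild type, 131 and 107 in prde-1, 179 and 151 in ethanol, and 213 and 160.0 after auxin. Of these ADL genes, srh-220 was above the median of other genes only in prde-1 at low salt and below it in every other library. The level of srh-234 was above that median in the ethanol and auxin libraries and below it in those of wild type and prde-1.

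Chromosome IV holds the clusters of piRNA genes, which cover only a part of it. Whether srh genes lie within these clusters was not examined. The 5 measured srh genes of the chromosome had a median relative level of -0.62 in wild type at low salt, with -2.14 for srh-282, -1.47 for srh-220, -0.62 for srh-223, -0.21 for srh-222 and 0.32 for srh-63. The highest of them, singled out after its values were seen, was srh-63 (WBGene00005285, 14523868 to 14525197, plus strand), with a level of 176 and 144 in wild type at low and high salt, 204 and 199 in prde-1, 179.5 and 111 in ethanol, and 209 and 150.4 after auxin. It was above the median of other genes in 6 of the 8 libraries.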

How the data were processed

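The members and the gene lists were chosen with earlier results of these data known. Of the 52 samples, the 16 H3 samples were used here, as 8 merged libraries. The authors used bowtie2 with the ce11 genome, kept reads of high mapping quality, removed duplicates with Picard, reduced replicates to equal size and merged them, kept mononucleosome-sized fragments and called nucleosomes with DANPOS3, subtracting the input. The prde-1 and wild type tables are named as corrected for GC content and the other tables are not. The deposited summit and point values are signal that the authors brought to a common total in every library, the deposited fuzziness is a score, and the deposited dyad positions are in bp. Sequencing depth is not given in the sources used here, so no counting error can be stated. Columns of the authors' fold changes, p-values and false discovery rates hold their own comparisons and were not used. Chromosome lengths of WBcel235 were checked against the highest dyad positions.

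Python 3.11.15 with NumPy 2.4.6 and pandas 2.3.3 was used, with Ensembl release 115. Genes with at least 3 nucleosomes in each of the 4 tables were measured (216 of 220 srh genes and 19569 of 19973 in all). A pseudocount of 1 was added before log2, and calls were made past 1.5-fold relative to the median of the other protein-coding genes. In 4.09% to 4.63% of positions per table the control library had no dyad of its own and the listed center was used. Where 1 library of a pair had no call, both share a dyad, so distances are not fully independent between paired libraries. Before centring, the median log2 ratio of the other genes was -0.01 and 0.07 in the prde-1 comparison (low and high salt), -0.12 and 0.11 for auxin against ethanol, and 0.08, 0.15, -0.16 and 0.05 for retention in wild type, prde-1, ethanol and auxin, and changes are given relative to it. With 1 merged library per group no test was run. The calculations were tested on simulated data. Named genes were, among srh genes with at least 5 nucleosomes per table, the 3 highest and 3 lowest by the median relative level of the 4 control libraries, by the mean retention of wild type and ethanol with one sign in both, by the change at high salt in prde-1 and after auxin with the same sign at low salt, and srh-142, srh-220 and srh-234. Alternatives covered the summary over nucleosomes, the pseudocount, the window, the comparison genes, GC content, repeated sequence and the fold threshold.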

Additional observations from a re-analysis of the deposited data

Results flagged for a closer look

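Salt retention of the srh genes had opposite directions in the 2 control conditions, with a median of 0.17 over 216 genes in wild type and of -0.26 in the ethanol control of the ISW-1 strain (both log2, relative to other protein-coding genes). The same signs were found in the sri genes (0.27 and -0.29), the C-type lectin genes (0.30 and -0.17), the Srg superfamily (0.16 and -0.13), the Sra superfamily (0.06 and -0.14) and the neighbours within 100 kb (0.04 and -0.07), so the pattern is not particular to srh genes. Not every receptor family shared it. The rest of the Str superfamily as a whole had 0.27 and 0.005, and the srw genes had -0.03 and -0.11. The wild type value was 0.095 within chromosome V. The wild type tables are named as GC-corrected and the ethanol tables are not, and this cannot be told apart from the strain. Each value comes from 1 merged library per salt, the tables were scaled separately, and the difference between the 2 was not tested. In the ethanol library at high salt 32.6% of srh nucleosomes were at 0, against 22.7% in wild type at high salt, and the part of these positions in the difference was not tested.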

How the results depend on the processing

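Of the 138 alternatives to the values over the whole family, 120 stayed within the 95% interval of the srh median over genes and 18 left it. That interval treats genes as independent, which they are not. A change of direction was counted only where the interval left out 0, and none was found there. The interval held 0 for both prde-1 changes, the auxin change at low salt and retention in prde-1 and after auxin, so direction was not judged for these. The auxin change at high salt, 0.34, was 0.23 within chromosome V, 0.48 with each nucleosome counted once, 0.53 with the median over nucleosomes and 0.56 at the point of largest difference, where the low salt value of 0.09 became 0.24. The prde-1 change at low salt was 0.18 at that point and 0.23 upstream alone, and the prde-1 retention of -0.01 was -0.15 at that point. With the median over nucleosomes retention was 0.27 after auxin and -0.41 in ethanol. The relative level of -0.30 was -0.17 against neighbours, -0.16 within chromosome V, -0.44 with each nucleosome once, -0.41 with the median and -0.11 at the point of largest difference, and after auxin at high salt that point gave 0.090, the opposite direction. The fuzziness difference of -1.59 was -0.59 against neighbours and -0.71 within chromosome V. The spacing difference of 6.75 bp was smaller against neighbours and within chromosome V, and 19.9 bp with dyads of occupancy of at least 50. Upstream alone, where genes with 1 or more nucleosomes were used, spacing in prde-1 at high salt gave -0.25 bp, the opposite direction. The causes of these differences were not tested. Leaving out control positions without a dyad of their own was added after seeing the data. No paired analysis was possible because the deposited values are of merged libraries and carry no replicate numbers, and for the same reason no replicate could be left out. Neither depth nor the spread between animals can be read from these values.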
